A study of Mus musculus with 7 samples.

Results

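The regions described here were E5 or E6 in control cells and any of E1 to E4 after LSD1 inhibition, where E1 to E6 are the chromatin states that the authors assigned along the mouse genome. They were chosen on the state labels of both segmentations, which were compared in 200 bp bins on chromosomes 1 to 19 and X, and stretches of adjacent lost bins of at least 400 bp were kept. There were 2914 such regions. They held 8987 of the 289103 bins that were E5 or E6 in the control, or 3.11%, and covered 1797.4 kb. The loss itself is therefore the selection and is given as a description. The class of a loss (whole domain, edge or inside) comes from the same labels, while the place of the regions, the genes they touched and their sequence were not used to choose them.

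The cells were murine leukaemia cells on the BALB/c background, derived from bone marrow that expressed mutant CSF3R and mutant CEBPA from retroviruses and cultured in IMDM with 20% fetal bovine serum. Both groups carried both mutant genes. One group was treated with 4 nM GSK-LSD1, an inhibitor of the histone demethylase LSD1, and the other with the solvent DMSO, each for 48 h. Chromatin immunoprecipitation followed by sequencing was done for H3K4me1, H3K4me3 and H3K27Ac, with 1 library for each mark in each treatment and 1 input library. The 3 marks of a treatment were combined into 1 segmentation, so there is no replicate of either treatment. No test was possible, and intervals in brackets are 95% Wilson intervals that cover counting error only. The labels do not say whether the cells were 1 clone or which promoter drove the mutant genes.

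H3K4me3 is typical of active and poised gene starts, H3K27Ac of active starts and enhancers, and H3K4me1 of enhancers and of the flanks of starts. LSD1 removes methyl groups from mono- and dimethylated lysine 4 of histone H3 and acts with CoREST and with the GFI1 repressors in blood cells. Chromatin states summarise which marks occur together, and the sources used here do not say which marks define which state number. In the control, 9600 of 17274 protein-coding genes with an annotated start in the promoter table had E5 or E6 at a start. By this measure E5 and E6 covered gene starts, although 37.2% of the 23705 control E5/E6 domains (uninterrupted runs of E5 or E6) were distal, a term used here for places over 2.5 kb away from the ends of all annotated genes. As a check of the cell label, 14 of 18 genes of blood progenitors and leukaemia had E5 or E6 at a start in the control. The count was 3 of 9 for azurophil granule genes, 1 of 18 for mature granulocytes and 1 of 16 for unrelated tissues. It was 7 of 15 for erythroid and megakaryocyte, 5 of 17 for lymphoid and 4 of 18 for monocyte and macrophage genes. For mast cells, basophils and eosinophils it was 3 of 11, and for stroma and endothelium 3 of 12. Housekeeping genes had 9 of 15, fewer than the progenitor list, and genes outside the promoter table count as lacking one. The check is therefore a rough one.

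The starts that were lost show the range of sequence concerned, and 7 of them are printed because the results below turn on them. Each line gives the 250 bases before the start on the gene's own strand, 5′ to 3′, from the RefSeq promoter table of build GRCm38.p6. CpG dinucleotides, the sites of DNA methylation in mammals and the hallmark of CpG islands, are in capitals. Phyhipl (chr10:70599292-70599541, minus strand) had the longest lost start, Kitl (chr10:100015571-100015820, plus strand), Kdr (chr5:75978456-75978705, minus strand), Cxcl12 (chr6:117168285-117168534, plus strand) and Irf4 (chr13:30748983-30749232, plus strand) lost whole domains, and Epor (chr9:21963577-21963826, minus strand) and Fcer1a (chr1:173227230-173227479, minus strand) lost an edge that held the start.
Phyhipl: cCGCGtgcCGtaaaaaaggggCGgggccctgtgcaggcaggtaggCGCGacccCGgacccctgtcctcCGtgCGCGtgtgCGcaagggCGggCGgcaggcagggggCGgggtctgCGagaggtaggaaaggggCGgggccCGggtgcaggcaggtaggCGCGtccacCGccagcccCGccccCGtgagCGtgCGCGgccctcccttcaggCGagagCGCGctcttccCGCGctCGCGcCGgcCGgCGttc
Kitl: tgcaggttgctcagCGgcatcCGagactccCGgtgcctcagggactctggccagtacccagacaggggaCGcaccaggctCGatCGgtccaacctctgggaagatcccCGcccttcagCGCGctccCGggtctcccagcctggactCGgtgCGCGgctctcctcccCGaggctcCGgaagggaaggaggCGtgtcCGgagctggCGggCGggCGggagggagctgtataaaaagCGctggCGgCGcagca
Kdr: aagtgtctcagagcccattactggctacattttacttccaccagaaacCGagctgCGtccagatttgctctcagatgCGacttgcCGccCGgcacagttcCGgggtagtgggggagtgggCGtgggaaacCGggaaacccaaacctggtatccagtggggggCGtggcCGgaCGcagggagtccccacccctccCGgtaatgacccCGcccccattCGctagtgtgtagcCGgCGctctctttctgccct
Cxcl12: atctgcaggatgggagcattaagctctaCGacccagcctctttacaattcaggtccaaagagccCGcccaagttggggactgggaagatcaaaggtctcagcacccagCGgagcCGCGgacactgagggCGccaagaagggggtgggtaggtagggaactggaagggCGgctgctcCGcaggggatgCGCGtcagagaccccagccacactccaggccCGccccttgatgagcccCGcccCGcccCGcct
Irf4: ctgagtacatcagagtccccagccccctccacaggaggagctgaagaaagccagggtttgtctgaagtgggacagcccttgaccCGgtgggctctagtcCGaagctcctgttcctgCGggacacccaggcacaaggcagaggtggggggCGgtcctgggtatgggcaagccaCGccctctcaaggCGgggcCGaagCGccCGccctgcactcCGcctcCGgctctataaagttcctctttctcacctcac
Epor: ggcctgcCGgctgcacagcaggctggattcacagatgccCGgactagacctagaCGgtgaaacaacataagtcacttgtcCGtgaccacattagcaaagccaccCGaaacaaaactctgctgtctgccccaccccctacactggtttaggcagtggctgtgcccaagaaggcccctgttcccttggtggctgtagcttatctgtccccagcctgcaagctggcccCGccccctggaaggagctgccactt
Fcer1a: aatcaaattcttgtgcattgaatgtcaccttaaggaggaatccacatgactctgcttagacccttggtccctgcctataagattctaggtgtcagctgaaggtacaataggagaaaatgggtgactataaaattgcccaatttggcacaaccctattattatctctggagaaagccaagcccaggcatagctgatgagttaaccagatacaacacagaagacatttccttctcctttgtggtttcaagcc
These stretches held 35 CpG for Phyhipl, 23 for Kitl, 16 for Kdr, 14 for Cxcl12, 11 for Irf4, 6 for Epor and 0 for Fcer1a. The lost starts thus ran from CpG-dense sequence to sequence with none.

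Most losses were edges of domains that otherwise kept E5 or E6. An edge was lost in 1719 of the 2914 regions (59.0%, 57.2 to 60.8), a whole control domain in 1020 (35.0%, 33.3 to 36.8), and a stretch inside a domain, with kept bins on both sides, in 175 (6.01%, 5.20 to 6.93). By area the whole losses had a larger share, 41.9% (753.8 kb), with 951 kb at edges and 92.6 kb inside domains. The regions were short: the median was 600 bp, 1335 were exactly 400 bp long, 356 reached 1000 bp and 19 reached 2000 bp. The order of the classes depended on the length limit. Among regions of at least 800 bp the whole losses were 56.4%, and when a shift of a domain border by 1 bin was not counted as loss they were 54.7%. Just outside the limit lay 2836 lost runs of a single bin, of which 88.0% were edges, and just inside it lay the 400 bp regions, of which 76.1% were edges.

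After treatment the lost regions mostly carried E4 or E1, the states that border E5 and E6 elsewhere. E4 took 61.9% of the lost area, E1 31.0%, E3, which covered most of the genome, 5.64%, and E2 the remainder. In all, 1760 regions became E4 only and 852 became E1 only. Whole losses went to E4 less often by area (51.9%) than edge losses (69.5%) did, and to E1 more often (36.6% against 26.4%). Most regions had been E5 (2688), with 163 from E6 alone and 63 from both. E6 made up 7.42% of the lost area and 9.91% of all control E5/E6 bins. State numbers were taken as the same states in both segmentations; E1 itself covered 0.483% of bins in the control and 4.72% after treatment, and 26.8% of control E4 bins were E4 after treatment, so the part that relabelling of E1 and E4 played in these destinations was not tested.

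**Figure D1:**
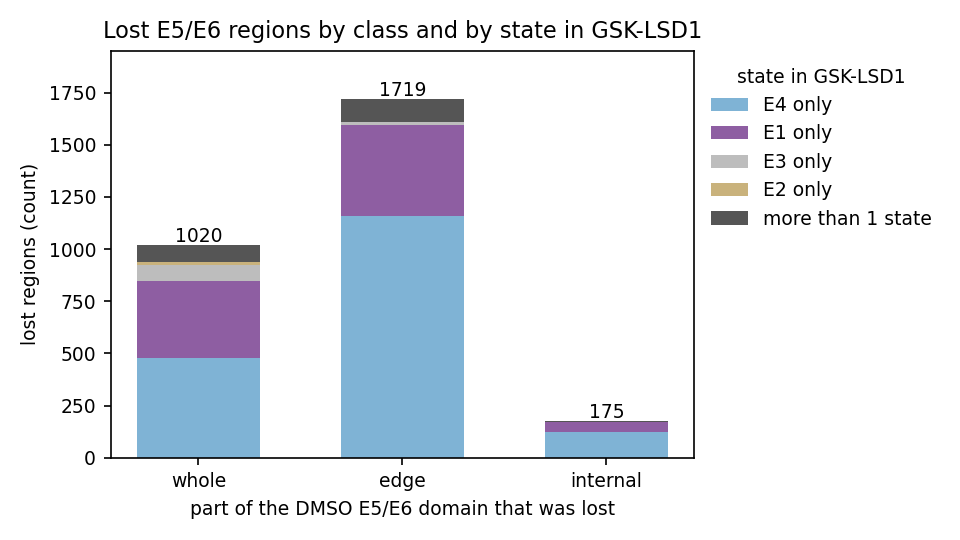
Number of lost E5/E6 regions of at least 400 bp (vertical axis) by the part of the control domain that was lost (horizontal axis), split by the state in GSK-LSD1. Of 1719 edge losses 1160 became E4 only, and of 1020 whole losses 478 became E4 only and 368 E1 only.

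Whether a domain was lost whole went with its length. Of all 23705 control domains, 1020 (4.3%) were lost whole at 400 bp or more, 1771 (7.47%) were trimmed by a region of at least 400 bp and 18452 (77.8%) were kept in full. Domains of 400 bp were lost whole in 21.2% of cases (18.6 to 23.9), those of 600 bp in 382 of 2121 cases, those of 800 bp in 14.0% and those of 1000 to 1400 bp in 4.24%. Above that, 23 of 2945 domains of 1600 to 2000 bp were lost whole, 9 of 4081 of 2200 to 3000 bp, 1 of 4656 of 3200 to 5000 bp, and none of 2203 longer ones. Trimming followed another course, with 8.37% of domains of 1000 to 1400 bp trimmed and 10.9% of those above 5000 bp. The median domain lost whole was 600 bp long, and the median domain kept in full 2000 bp. An edge or internal loss needs a domain longer than 400 bp, so length also limits which class a region can fall in.

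**Figure D2:**
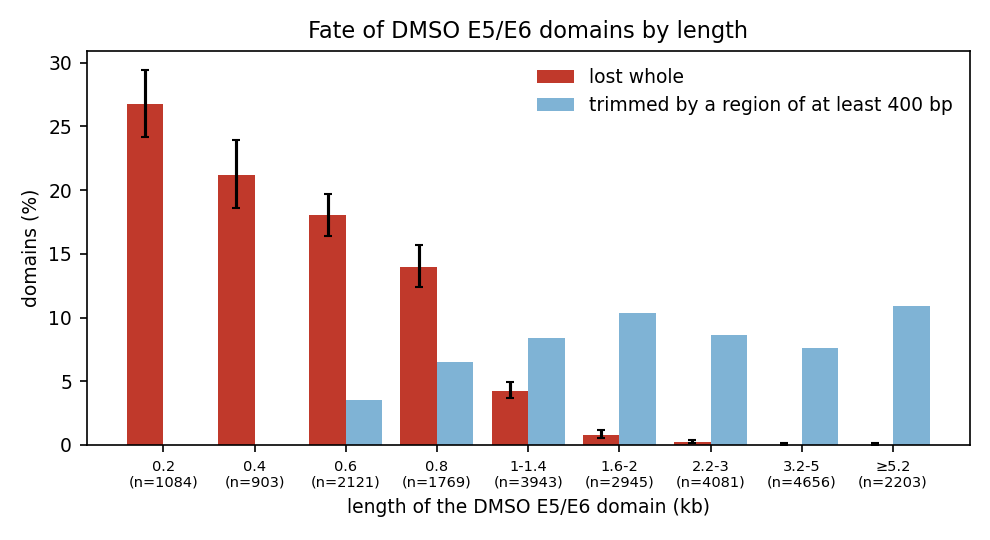
Percent of control E5/E6 domains lost whole, with 95% Wilson intervals, and percent trimmed by a region of at least 400 bp, by domain length in kb, with the number of domains under each class. Whole loss falls from 21.2% at 400 bp to 0 of 2203 domains above 5000 bp, while trimming stays between 7.62% and 10.9% from 1000 bp up; domains of 200 bp are shown for comparison and are outside the length limit.

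Domains lost whole lay farther from genes than the rest, and length went along with this. Of the whole losses 60.7% (57.7 to 63.6) were distal, of the edge losses 45.8% and of the internal losses 38.9%, against 37.2% of all control domains and 35.8% of those kept in full. Within a length class the order was not the same throughout. At 600 bp 17.3% of distal and 19.2% of other domains were lost whole, and at 800 bp 13.0% and 15.5%. At 1600 to 2000 bp the values were 1.20% and 0.506%, and at 2200 to 3000 bp 0.431% and 0.159%, on 23 and 9 losses. A protein-coding start lay in 93 whole losses (9.12%), against 37.6% of all control domains, but this order turned among short domains of like length. At 600 bp, 23 of 67 domains with a start (34.3%) and 17.5% of those without were lost whole, and at 800 bp 29 of 107 (27.1%) and 13.1%. At 1000 to 1400 bp the values were 4.38% and 4.21%, and at 1600 to 2000 bp 0.421% and 0.952%. Most of the lost regions lay in the body of a protein-coding gene (69.4%). The same share was not computed for all control domains, so no preference for genes can be read from it. The median distance of a whole loss from the nearest protein-coding gene end was 10029.5 bp.

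Whole losses differed by the state that replaced them. The 368 that became E1 were 78.5% distal, and 2 of them held a protein-coding start. The GSK-LSD1 segment of E1 around them had a median length of 6200 bp, and 59.2% of these segments were at least 5 kb long. The 478 that became E4 were 50.8% distal and 58 of them held a start, within E4 segments of a median 2200 bp. The 77 that became E3 had 16 with a start (20.8%), and the E3 segment around them had a median length of 408400 bp. Of the whole losses to E1, 75.3% lay in a protein-coding gene, against 68.8% of all whole losses. Lying within genes was thus common to whole losses, while those to E1 were mostly away from starts and inside long E1 stretches.

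Some domains lost whole had E5 or E6 close by after treatment, and others were isolated. E5 or E6 was present in GSK-LSD1 within 200 bp of 128 whole losses (12.5%), within 1 kb of 270 (26.5%) and within 10 kb of 507 (49.7%). The median gap was 10500 bp, with quartiles of 1000 and 51600 bp. In the control, the next domain had been a median 13400 bp away from domains lost whole, against 7600 bp for domains kept in full. It was also a median 13400 bp away from domains trimmed by a lost region, so this distance did not set whole losses apart from trimmed domains.

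Trimmed domains mostly remained large. Their median length was 2200 bp and the median share lost was 25%, and 372 of 1771 (21.0%) lost at least 50%. In total length, the E5/E6 domains that overlapped them after treatment were shorter in 985 cases (55.6%), longer in 618 (34.9%) and equal in 168, so that some domains that lost a stretch had gained at another border. The loss split 184 of them (10.4%) in GSK-LSD1. Of their kept bins 47.4% were E6 after treatment, against 60.3% in domains kept in full.

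Edge losses had 2 main forms, told apart by the states on either side. In the control, 1613 of 1719 (93.8%) bordered E4 on the outside. Of the 432 edges that became E1, 428 (99.1%) lay next to E6 after treatment, whereas 27 of the 1160 edges that became E4 (2.33%) did. The same pairing held for all borders of E5 and E6 in the treated segmentation: E6 bordered E1 at 96.9% of its borders and E5 bordered E4 at 98.5%. The pairing is therefore not particular to lost edges. Edges to E1 were 71.8% distal and edges to E4 37.6% distal.

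Where an edge loss could be set against the direction of a gene, it lay more often on the downstream side. Of 594 edge losses in domains whose protein-coding starts were all on 1 strand, and which did not hold the start themselves, 360 (60.6%, 56.6 to 64.5) were downstream, a median 1800 bp from the start, and 234 were upstream, a median 600 bp away. The domains themselves reached a median 2000 bp downstream and 800 bp upstream, over 8059 domains. Edge gains under the same count were downstream in 53.8% of 9161. Another 45 edge losses held the start, and 1037 (60.3%) belonged to domains with no protein-coding start.

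The losses ran against a much larger gain. With the treatments exchanged, 34396 regions covering 38270.8 kb were E1 to E4 in the control and E5 or E6 after treatment. Their classes were in like order, with 63.1% edges, 28.3% whole domains and 8.64% inside domains, and their median length was 800 bp against 600 bp. The gained area was 57.8% E6, whereas 7.42% of the lost area had been E6. Distal shares were near each other, 52.3% for gains and 50.6% for losses.

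The share of control E5/E6 area that was lost varied little by chromosome, with 3.08% ± 0.386 (SD over 19 autosomes, which are not replicates; 2.18 to 3.73%) and 3.97% on the X chromosome. A pair of places held dense groups. On chr11:3132001-3200000, within Sfi1, which encodes a centrosome protein, 27 regions with 28.8 kb lay together, 24 of them whole losses, 99.3% of the area from E6 and 96.5% to E1. The second, chr9:3002801-3035600, held 14 regions, all from E6. These 2 groups held 40 of the 163 regions that came from E6 alone, and without them E6 made up 5.33% of the lost area and 2873 regions remained. Sfi1 had 26.2 kb of E5/E6 within 20 kb of its ends in the control and 14 kb after treatment, the largest decrease of any protein-coding gene. In the control the dense stretch within Sfi1 held 36.8 kb of E1, 31 kb of E6, 0.2 kb of E5 and no other state. Whether repeats or the mapping of reads at these 2 places had a part in their losses was not tested. Apart from such groups the regions were scattered: of 2527 groups that joined regions within 20 kb of each other, 2223 were single regions.

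An end of 221 protein-coding genes lay in a lost region, or 1.98% of the 11186 with E5 or E6 at an end in the control. Of the 9600 protein-coding genes with E5 or E6 at a start in the control, 152 had none at a start after treatment. That count has no limit on run length, like the count of 446 genes with E5 or E6 at a start only after treatment. In 131 of the 152, or 1.36% of the 9600, a start lay in a lost region of at least 400 bp. The start bin was E4 in 102 of these 131 genes, E1 in 6, and E2 or E3 in 23. In 86 of these genes the start lay in a domain lost whole, in 36 in a lost edge and in 9 in a stretch lost inside a domain. The whole losses took E5 and E6 out of the neighbourhood: the nearest E5 or E6 in GSK-LSD1 was a median 98300 bp from the start, beyond 5 kb in 81 of 86 and beyond 20 kb in 73. Edge and internal losses border kept E5 or E6 by definition, and 35 of the 36 and all 9 of the 9 starts had E5 or E6 within 1 kb.

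The longest losses at starts were mostly whole losses. Phyhipl, a gene expressed mainly in brain, had an E5 domain of 2800 bp at its start (chr10:70599001-70601800) that became E4 and E3, and its E5/E6 within 20 kb went from 2.8 kb to 0. The nearest E5 or E6 after treatment was 310600 bp from the start. Its upstream sequence printed above, with 35 CpG in 250 bases, was the densest of those shown. Lhfpl4, which takes part in GABA receptor synapses, lost 1800 bp (chr6:113194401-113196200), and Npas3, a transcription factor of the nervous system, lost 1800 bp (chr12:53247401-53249200), with E5 or E6 again 800 bp from the start. An internal start of Dmd, which encodes dystrophin, lost 1600 bp to E3 (chrX:85047801-85049400). Phlda3, a p53 target, lost 1600 bp (chr1:135765401-135767000). Starts of Epha5, Fam124a and Htr6 lost 1400 bp each, and those of Epha4, Map2 and Cav1 lost 1200 bp each, all to E4. Epha4 and Epha5 are ephrin receptors, Map2 a neuronal microtubule protein, Htr6 a serotonin receptor and Cav1 the main protein of caveolae. For Epha5 the nearest E5 or E6 after treatment was 1645400 bp away and for Epha4 678800 bp. Foxf2 and Onecut1, which encode developmental transcription factors, each lost 1000 bp at the start.

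Of 12 genes of stroma and endothelium, 3 had E5 or E6 at a start in the control, and all 3 lost it: Cxcl12, the chemokine that retains blood stem cells in the marrow, Kitl, the ligand of the receptor KIT, and Kdr, a receptor of vascular endothelial growth factor. Over all genes with such a start the share was 1.36%. Whole loss of domains with a start went with length. It was 34.3% at 600 bp, the length of the Cxcl12 domain. At 1000 to 1400 bp, the class of the Kitl and Kdr domains, it was 4.38%. Cxcl12 lost 600 bp to E3 (chr6:117168401-117169000), Kitl 1000 bp to E4 (chr10:100015601-100016600) and Kdr 1000 bp to more than 1 state (chr5:75977801-75978800). Within 20 kb of their ends E5/E6 went from 0.6 kb, 1 kb and 1 kb to 0 in each. Their sequences printed above hold 14, 23 and 16 CpG in 250 bases. Any E5 or E6 within 20 kb was present in the control for 7 of the 12 genes of the list, whose summed window area was 18.8 kb in the control and 44.8 kb after treatment. Whether cells of another type in the cultures had a part in these 3 losses was not tested.

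In the lists of blood genes, single genes lost a start. Of the 14 myeloid transcription factor genes with E5 or E6 at a start, 1 lost it: Irf4, a factor of lymphoid and dendritic cells, whose 400 bp domain (chr13:30749001-30749400) became E4. Of the 7 erythroid and megakaryocyte genes 1 did, Epor, the erythropoietin receptor, through a 400 bp edge (chr9:21963201-21963600) of a domain of 2800 bp that kept E5 or E6 200 bp away. Of the 3 genes of mast cells, basophils and eosinophils 1 did, Fcer1a, a chain of the IgE receptor, where the 400 bp edge of a 6400 bp domain became E1 (chr1:173227201-173227600). Of the genes of unrelated tissues Neurod1, a neuronal and islet factor, lost 800 bp at the start and was the 1 gene of that list that had E5 or E6 there. The domains of Irf4 and Neurod1 were short. Among domains with a start, 8 of 14 of 400 bp (57.1%) and 27.1% of those of 800 bp were lost whole. No start was lost among the 14 progenitor and leukaemia genes, 13 JAK/STAT genes, 11 genes of LSD1 and CoREST, 11 interferon genes, 14 immediate early and stress genes or 9 developmental genes that had one. Beside a share of 1.36% over all genes, nothing particular to these lists can be read from counts of 0 in lists of this size.

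Within 2.5 kb of a gene end a lost region lay for 1296 of 21631 protein-coding genes, or 5.99%. No such region lay near any of 18 granulocyte, 9 azurophil granule, 18 monocyte and macrophage, 18 chemokine and cytokine or 13 LSD1 and CoREST genes. Beside 5.99% over all genes, nothing particular to these 5 lists can be read from counts of 0 in lists of this size. Part of these had little to lose: 10 of the 18 granulocyte and 9 of the 18 monocyte genes had any E5 or E6 within 20 kb of an end in the control. The count was 4 of 18 for myeloid transcription factors, 3 of 16 for interferon genes, 3 of 15 for erythroid and megakaryocyte genes, 4 of 20 for immediate early and stress genes, 2 of 18 for JAK/STAT genes, 1 of 18 for progenitor and leukaemia genes, 1 of 17 for lymphoid genes, 1 of 15 for antigen presentation and 1 of 15 for housekeeping genes. It was 4 of 16 for genes of unrelated tissues, 3 of 12 for stroma and endothelium, 5 of 39 for Hox genes, 3 of 30 for developmental genes and 1 of 11 for mast cell, basophil and eosinophil genes. The myeloid factors were Irf4 and, by regions beside a kept start, Cebpb (an 800 bp edge to E1), Egr1 (a 600 bp edge to E1) and Jund (a 400 bp stretch inside a domain, to E1). The genes that the model and the drug concern held none so near. Csf3r, the receptor of granulocyte colony-stimulating factor, had a 600 bp edge loss 11026 bp away, while its E5/E6 within 20 kb was 6.8 kb in the control and 10.6 kb after treatment. Cebpa (3.4 and 6 kb), Gfi1 (5.2 and 22 kb) and Kdm1a, which encodes LSD1 (2.8 and 4.8 kb), had no lost region within 20 kb.

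Around genes with a lost region E5 and E6 still grew in most cases. A lost region lay within 20 kb of an end of 3436 protein-coding genes, or 15.9%. Their net E5/E6 area in these windows was larger after treatment in 2592 (75.4%) and smaller in 733 (21.3%), against 11263 (96.1%) larger and 196 smaller of 11718 genes that had E5 or E6 in the control and no lost region. Windows with a lost region hold lost area by selection, so the direction of this difference was fixed by the rule. Among the 3436 genes, a loss was usually a local exception within a gain. After Sfi1 and its neighbours, the largest net decreases were at Pgk1 (11.8 to 7.8 kb) and its neighbour Taf9b (10.6 to 6.8 kb, by the same lost region), Irx2 (5.8 to 2.6 kb), Prdm16 (6.8 to 3.8 kb), Phyhipl, Foxf2 (2.6 kb to 0), Rprm (6.8 to 4.2 kb) and, each by 2.4 kb, Gramd2, Tpcn2 and Pax3. These genes are named because of their values.

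By area, the lists differed in how much of their E5/E6 lay in lost regions. Over all protein-coding genes with E5 or E6 within 20 kb of an end, 2.68% of the control area lay in lost regions and 22.7% of the genes had one. The share was 13.8% for stroma and endothelium (3 regions), 9.87% for the Hox clusters, 7.59% for lymphoid genes (8 regions) and 5.54% for developmental genes (7 regions). It was 1.85% for progenitor and leukaemia genes (5 regions), 0.755% for azurophil genes and 0.482% for LSD1 and CoREST genes. The last 2 rest on 1 region of 0.4 kb each. Control areas also differed, with 18.8 kb for stroma and endothelium and 83 kb for LSD1 and CoREST. With so few regions, no contrast between gene classes can be read from these shares. The Hox value rests on 6 regions, which 19 of 35 genes share because the clusters are compact; 3 lie in the stretch from Hoxb6 to Hoxb4, 1 of 800 bp lies beside Hoxa11 and was lost whole, and Hoxa7 and Hoxc9 have 1 edge loss each. E5/E6 within 20 kb of Hoxa9, a factor of leukaemic self-renewal, was still 6.2 kb in the control and 10.4 kb after treatment. Among lymphoid genes Tcf7 had 3 regions with 2.8 kb, yet its window went from 21.4 to 23 kb.

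**Figure D3:**
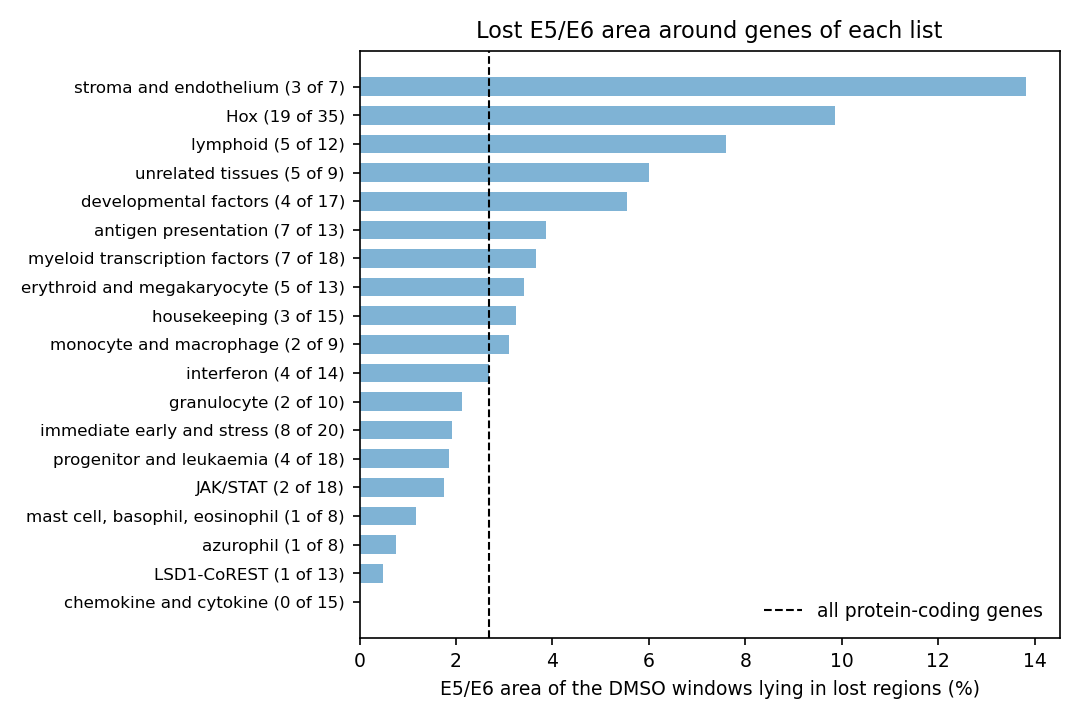
Percent of the control E5/E6 area within 20 kb of the ends of each list's genes that lay in lost regions, each bin counted once; in brackets, the number of genes with a lost region of those with E5 or E6 in the window. The dashed line is the value over all protein-coding genes, 2.68%; stroma and endothelium stand at 13.8% on 3 regions.

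The longest losses show the 3 classes at single genes. The longest whole loss (4800 bp, chr11:115586201-115591000) lay in the body of Gga3, which encodes a sorting adaptor of the Golgi. It had been E5 with 5 bins of E6 and became E1 throughout. Whole losses to E1 inside genes also took 2600 bp in Eif3h, a subunit of translation initiation factor 3, 2400 bp in Gss, glutathione synthetase, 2200 bp in Trat1, an adaptor of the T-cell receptor, 2200 bp in Podxl, podocalyxin, and 2000 bp in Foxo3, a forkhead factor. At Gga3, Eif3h, Podxl and Foxo3 the net window area was nevertheless larger after treatment, for instance 20.2 and 20.4 kb at Gga3, whereas it was smaller at Gss (4.8 and 4.4 kb) and Trat1 (2 kb and 0). Xkr4 lost 2000 bp over an end of the gene and had no E5 or E6 left in its window.

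The longest edge loss (4800 bp, chrX:106191801-106196600) took the part away from the start of a 9400 bp E5 domain over Pgk1, the glycolytic phosphoglycerate kinase, and left E4 with 1 bin of E3. Pkm, pyruvate kinase, lost 2400 bp of a 13000 bp domain to E4, and Ero1a, an oxidase of the endoplasmic reticulum, 2000 bp of a 12000 bp domain to E4. Osbpl8, an oxysterol-binding protein, lost 2000 bp of 11600 bp to E1, and Smad5, a mediator of BMP signals, 1800 bp of 6600 bp to E1. Inside domains, the longest stretches were 2600 bp in Akna (to E1), which encodes an AT-hook protein, 2200 bp in Cd248 (to E4), which encodes endosialin, 1600 bp beside Dll4 (to E4), a Notch ligand, and 1400 bp in Gnai2 (to E1), an inhibitory G protein subunit. The Cd248 stretch covered most of that short gene while E5 stayed on both sides.

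**Figure D4:**
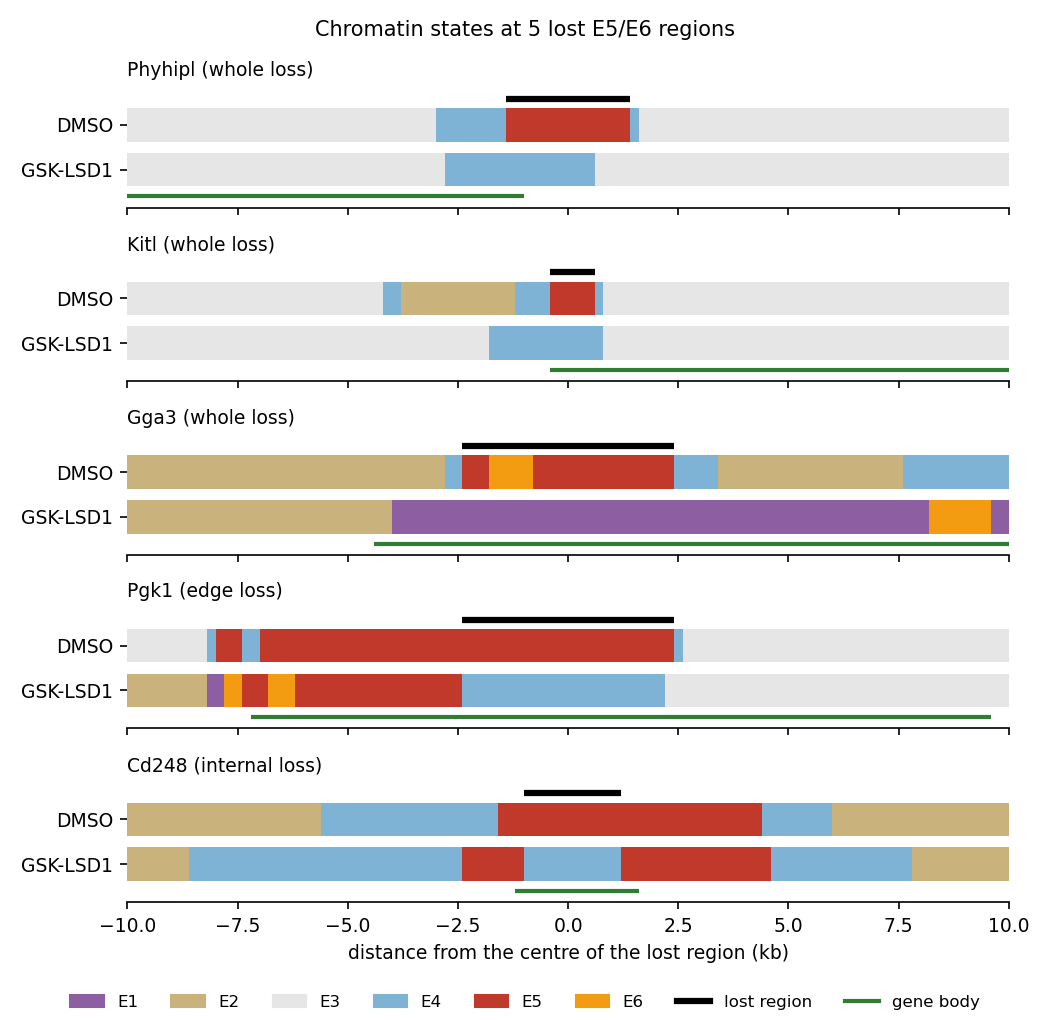
Chromatin states E1 to E6 in 200 bp bins (colours) in DMSO and GSK-LSD1 against distance in kb from the centre of the lost region, for 3 whole losses, 1 edge loss and 1 internal loss; the black bar is the lost region and the green line the gene body. Phyhipl and Kitl keep only E4 within a gap of E3, Gga3 lies in a continuous stretch of E1, Pgk1 keeps E5 and E6 on the side of its start, and Cd248 keeps E5 on both sides.

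Promoters in whole losses were CpG-rich, though less so than those that kept their state. The RefSeq windows of 300 bases (250 before the start and 50 after) held a median 18 CpG (quartiles 12.75 and 30) for the 100 starts in whole losses, 12.5 for the 48 in edge losses and 13.5 for the 12 in internal losses. The median was 22 for 11241 starts that were E5 or E6 in both segmentations, 9 for 621 that were so only after treatment, 4 for 8998 that were so in neither and 13 over all 21045. Domain length matters to this comparison. Among starts in domains of 400 to 800 bp, the median was 18 in 65 lost whole and 13 in 99 kept in full, and in domains of 1000 to 1400 bp it was 19 in 30 and 17 in 474. Within short domains, the starts that were lost were therefore not poorer in CpG than those kept. The observed-to-expected CpG ratio at 400 to 800 bp was 0.661 for lost and 0.534 for kept starts, and 0.620 and 0.677 at 1000 to 1400 bp, where the order was the other way round.

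**Figure D5:**
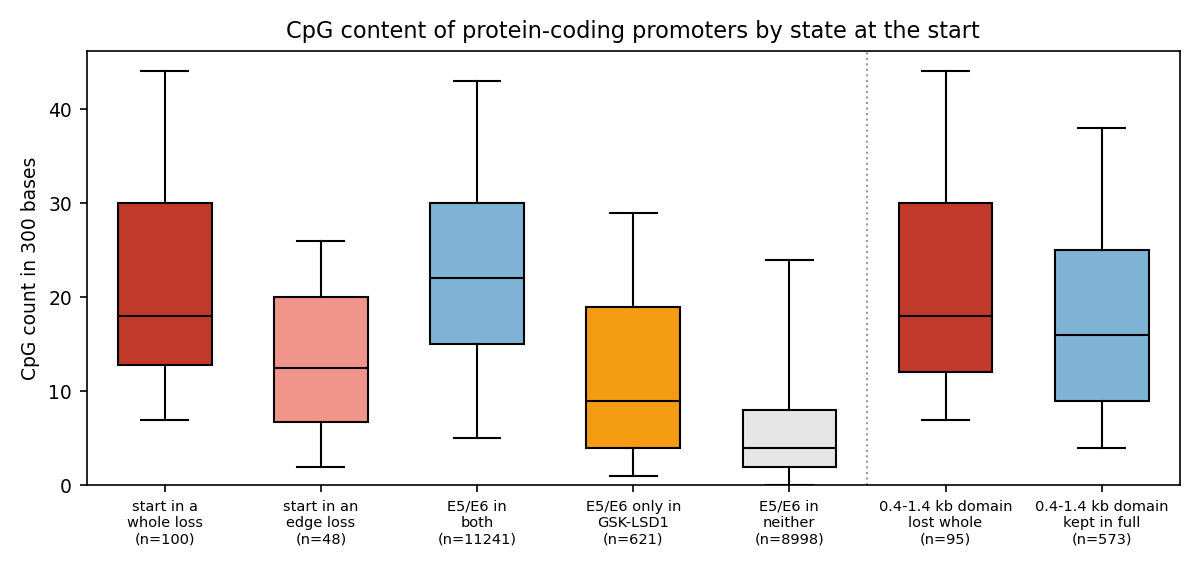
CpG dinucleotides in the 300 bases around protein-coding starts (vertical axis) by group of starts; boxes span the quartiles with the median, whiskers the 5th to the 95th percentile, and n counts starts. Starts in whole losses have a median of 18 and starts with E5 or E6 in both a median of 22; right of the dotted line, for domains of 0.4 to 1.4 kb alone, lost starts have 18 and kept starts 16.

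The same windows were searched on both strands for 7 short motifs. The GC box GGGCGG, which contains a CpG, occurred in 73% of starts in whole losses, 68.7% of those kept in both and 46.7% of all. The TATA box TATAAA occurred in 7%, 5.88% and 12.7%, and the ETS core GGAAGT in 19%, 28.5% and 25%. The C/EBP motif TTGCNNAA stood at 5%, 7.66% and 10.3%, the RUNX motif TGTGGTT at 3%, 3.31% and 4.74%, the GATA motif AGATAA at 5%, 5.43% and 9.68%, and the AP-1 motif TGANTCA at 4%, 4.36% and 7.04%. With 100 starts in whole losses, 1 start moves these shares by 1 point. Domain length matters here too. In domains of 400 to 1400 bp, the ETS core occurred in 20% of 95 starts lost whole and 23.4% of 573 kept in full. The GC box occurred in 72.6% and 60.9%, and the TATA box in 7.37% and 8.03%. A motif match describes the letters and no binding.

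Of 1005 annotated miRNA hairpins 4 overlapped a lost region, where 167 overlapped E5 or E6 in the control. Lost regions held 3.11% of all control E5/E6 bins, so 4 of 167 is near the share over all bins. The 4 hairpins were Mir149, in an 800 bp domain lost whole to E3, and Mir5618, in a 600 bp domain lost whole to E1. The others were Mir6402, in a 400 bp edge, and Mir5114, in a 600 bp stretch inside a domain, both to E4.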

How the data were processed

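Chromatin immunoprecipitation was done for 3 histone marks in cells treated with GSK-LSD1 or DMSO, with 1 input library. The authors deposited 1 segmentation per treatment, whose values are state labels (E1 to E6) and not counts, per the labels, so depth is unknown. Reads were aligned with Bowtie to mm10 (GRCm38), per the submitters' processing notes. The Bowtie version, the segmentation tool, its thresholds, the role of the input and any joint fit of both treatments were not given in the sources used here. Such steps set where a domain ends, so a signal near a threshold can move a border by a bin. The samples were grouped by the treatment in the labels.

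The segments (136061 in DMSO, 162731 in GSK-LSD1) were expanded to 200 bp bins and compared by state number. A domain is an uninterrupted run of E5 or E6 in DMSO. A lost region that equals its domain is a whole loss, one that touches 1 end an edge loss, and any other an internal loss. Genes came from RefSeq (GRCm38.p6; 21631 protein-coding, 49554 in all). Starts and strands came from the RefSeq promoter table, which covered 17274 protein-coding genes (79.9%). Starts on chromosome 18 were absent from that table as used here, so no count of starts covers them. All 336 entries of the 19 gene lists were matched. The members and lists were chosen with earlier results of these data known. Named genes were the 8 longest whole, 6 longest edge and 4 longest internal losses, the 15 genes with an end in the longest lost regions, the 10 genes with the largest lost area, up to 3 members of each list with the longest region within 2.5 kb, and Cebpa, Csf3r, Kdm1a and Gfi1. Genes outside this rule (the other lost starts, net decreases, the hypoxia list and the miRNAs) were named after their values were seen, and some genes that the rule takes are left out for length. On simulated losses planted in the DMSO segmentation, 600 of 600 were recovered with their class and limits. Alternatives changed the length limit, starting and lost states, border shift, chromosomes, domain length, distal limit and gene-end limit. Python 3.11.15, numpy 2.4.6, pandas 2.3.3 and matplotlib 3.10.9 were used.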

Additional observations from a re-analysis of the deposited data

How the results depend on the processing

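Alternative settings were applied to the 2914 regions, the whole share of 35.0%, the distal share of 50.6% and the E4 share of 61.9% of the lost area. They were also applied to the 221 protein-coding genes with a gene end in a lost region (1.98% of 11186 with E5 or E6 at an end). Of the 52 values obtained, 19 stayed close and 33 moved. A share counted as moved once it left the Wilson interval of its main value, so small shifts could count. Counts of regions or genes were allowed a wider proportional change. With a minimum of 200 bp there were 5750 regions, 22.8% whole, and E4 took 64.1%. With a minimum of 800 bp there were 793 regions, 56.4% whole, E4 took 60.0%, and 97 genes were concerned. With E5 alone as the starting state E4 took 66.7%. With E6 alone there were 191 regions, 45.0% whole, 75.9% distal, E4 took 6.01%, and 5 genes were concerned. When only E2 and E3 counted as lost there were 176 regions, 53.4% whole, 44.3% distal, with 23 genes, and when E1 to E3 counted there were 1043 regions, 44.9% whole, 68.7% distal, with 55 genes; the E4 share has no value there. With a border shift of 1 bin allowed there were 1716 regions, 54.7% whole, 55.0% distal, E4 took 56.8%, and 129 genes were concerned. With domains of at least 600 bp the whole share was 30.4% and E4 took 63.0%. With single deposited segments in place of joined E5/E6 domains the whole share was 36.8%. With distal limits of 1 and 5 kb the distal share was 68.5% and 36.0%. With gene ends within 1 kb of a lost region there were 739 genes. Without the 2 largest groups of regions, an alternative chosen after seeing the data, E4 took 63.1%. Each alternative changes by construction which bins, borders, domains or distances are counted, and no other cause was tested. With 1 segmentation per treatment no sample could be left out. No paired analysis was possible because each treatment has 1 segmentation of pooled marks, which carries no replicate number. The depth behind a state label is unknown, and 45.8% of the regions are 400 bp long, so short losses rest on few bins.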

Other observations

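Pgk1, Pkm and Ero1a, which had 3 of the longest edge losses, are known targets of the hypoxia response, as is Egln1, the prolyl hydroxylase PHD2, which lost 1200 bp inside an 8800 bp domain. A list of 40 hypoxia and glycolysis genes was therefore made after these values were seen, and its counts are a description of genes that the regions themselves pointed to, with no test. Of 39 such genes with E5 or E6 within 20 kb in the control, 23 (59.0%) had a lost region, and 6.04% of their E5/E6 area was lost. These genes have large windows of E5 and E6. Among genes with at least 10 kb, 14 of 22 on the list (63.6%) had a lost region, where 1087 of 3358 of all such protein-coding genes (32.4%) had one. The 4 genes that prompted the list are among the 23 and among the 14. Part of this difference, and of the lost area, was therefore fixed when the list was made, and no enrichment can be read from it. Besides those 4, the list had losses of 2 kb in 2 regions at Pfkp, a phosphofructokinase, and 1600 bp at Bnip3, a mitophagy receptor. The loss was 1200 bp at P4ha1, a collagen prolyl hydroxylase, and 1.2 kb in 2 regions at Pfkl. It was 1000 bp each at Eno1, enolase, and Egln3, another prolyl hydroxylase. The regions near these genes were 15 edge, 8 internal and 4 whole losses, most of them in gene bodies. Net E5/E6 area was still larger after treatment in 17 of the 23 genes and smaller in 6.

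On the Y chromosome, which was outside the comparison, the control had 2 bins of E5 or E6, and they formed 1 lost region. The mitochondrial sequence had 0 such bins in the control.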
